A study of Mus musculus with 24 samples.

Results

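Sorted splenic natural killer (NK) cells were set against total splenic leukocytes on 8 of the 24 oligonucleotide arrays of a mouse study of pancreatic islet infiltrates in type I diabetes. The 8 arrays were taken by their titles, 4 of NK cells and 4 of splenic leukocytes, and each population had 2 arrays on each of 2 genetic backgrounds. The NK cells were sorted as viable (Hoechst-) CD45+ Asialo GM1+ cells of the spleen, and the splenic leukocytes as viable CD45+ cells. The other 16 arrays held pancreatic infiltrates and BDC2.5 clonotype-high CD4+ T cells of pancreas and pancreatic lymph node. All 16, infiltrates included, came from BDC2.5 mice on the same 2 backgrounds.

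The B6g7 mice were C57Bl/6 mice homozygous for the H2g7 haplotype, which is the MHC haplotype of the NOD mouse. B6g7 NK cells came from mice without a transgene, aged 6 weeks for replicate 1 and 3 weeks for replicate 2. The labels give no age for the NOD NK cells or for the splenic leukocytes of either background. Each of the other 16 arrays has a labelled age, in every case below the 6 weeks of B6g7 NK replicate 1. NOD NK replicate 2 came from BDC2.5 mice, whose transgenic T cell receptor makes CD4+ T cells recognise a pancreatic islet antigen, and for NOD NK replicate 1 and the splenic leukocytes no transgene is stated. No label ties an array to an animal, and the p-values thus measure the spread between arrays, which may be technical.

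NK cells are innate lymphocytes that kill infected or transformed cells without a rearranged antigen receptor. They integrate signals from inhibitory receptors for MHC class I and from activating receptors, and they kill with perforin and granzymes from cytotoxic granules or with death ligands such as Fas ligand. In the spleen they are a small fraction beside B and T lymphocytes. Asialo GM1, the glycolipid used for the sort, is also carried by some T cells, basophils and macrophages.

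RNA was amplified in 2 rounds for the NK cells and for the 16 other arrays, and in 1 round for the splenic leukocytes. Amplification and population therefore cannot be told apart in this comparison. The log2 signal of 3′ minus 5′ Gapdh control probe sets was 4.32 to 5.27 in NK cells against 0.21 to 0.37 in splenic leukocytes, and 2.56 to 4.87 in the 16 other arrays. For beta-actin it was 5.29 to 5.52 in NK cells, 0.63 to 0.80 in splenic leukocytes and 1.88 to 4.88 in the other 16. The range over those 16 arrays is given below beside single genes. They had 2 rounds like the NK cells, but came from other cells and had beta-actin values below all 4 NK arrays. Array medians of deposited intensity ran from 37.5 to 38.8 over the 8 arrays. The serial codes in the sample descriptions, present for 3 of the NK arrays and all 4 spleen arrays, form a separate run for each population, so that code run and population cannot be told apart either. Of 37 genes made mainly in other organs, the 90th percentile in the 8 arrays was 5.85 log2 units, and this is called the level of absent transcripts. Where the lower population averaged at or below it, a fold is given as at least the stated value.

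A limma fit with the background as a block called 5556 of 12422 probe sets (44.7%) at an adjusted p under 0.05. Of these 2940 (23.7% of those tested) were higher and 2616 (21.1%) lower in NK cells. With the probe set of highest mean standing for each of 8251 genes, 45.9% were called, of which 1891 (22.9% of all) rose and 1898 (23%) fell. The 4 NK arrays lay above the 4 spleen arrays without overlap for 23.6% of genes and below them for 21.9%. Different probe sets of a gene often disagreed. Among 592 genes with at least 2 probe sets called, 264 (44.6%) had calls in opposite directions, and 18 of 73 (24.7%) did where each call exceeded 1 log2 unit. In the comparison of NK cells with lymph node T cells, both amplified in 2 rounds, the same counts were 31 of 125 (24.8%) and 1 of 28 (3.57%). A call of a single probe set, above all one under 1 log2 unit, is therefore a statement on that probe set. Among the 37 genes of other organs 6 were called higher and 1 lower, with differences of at most 0.49 in size. The plot of the gene lists shows every member with its call.

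**Figure D1:**
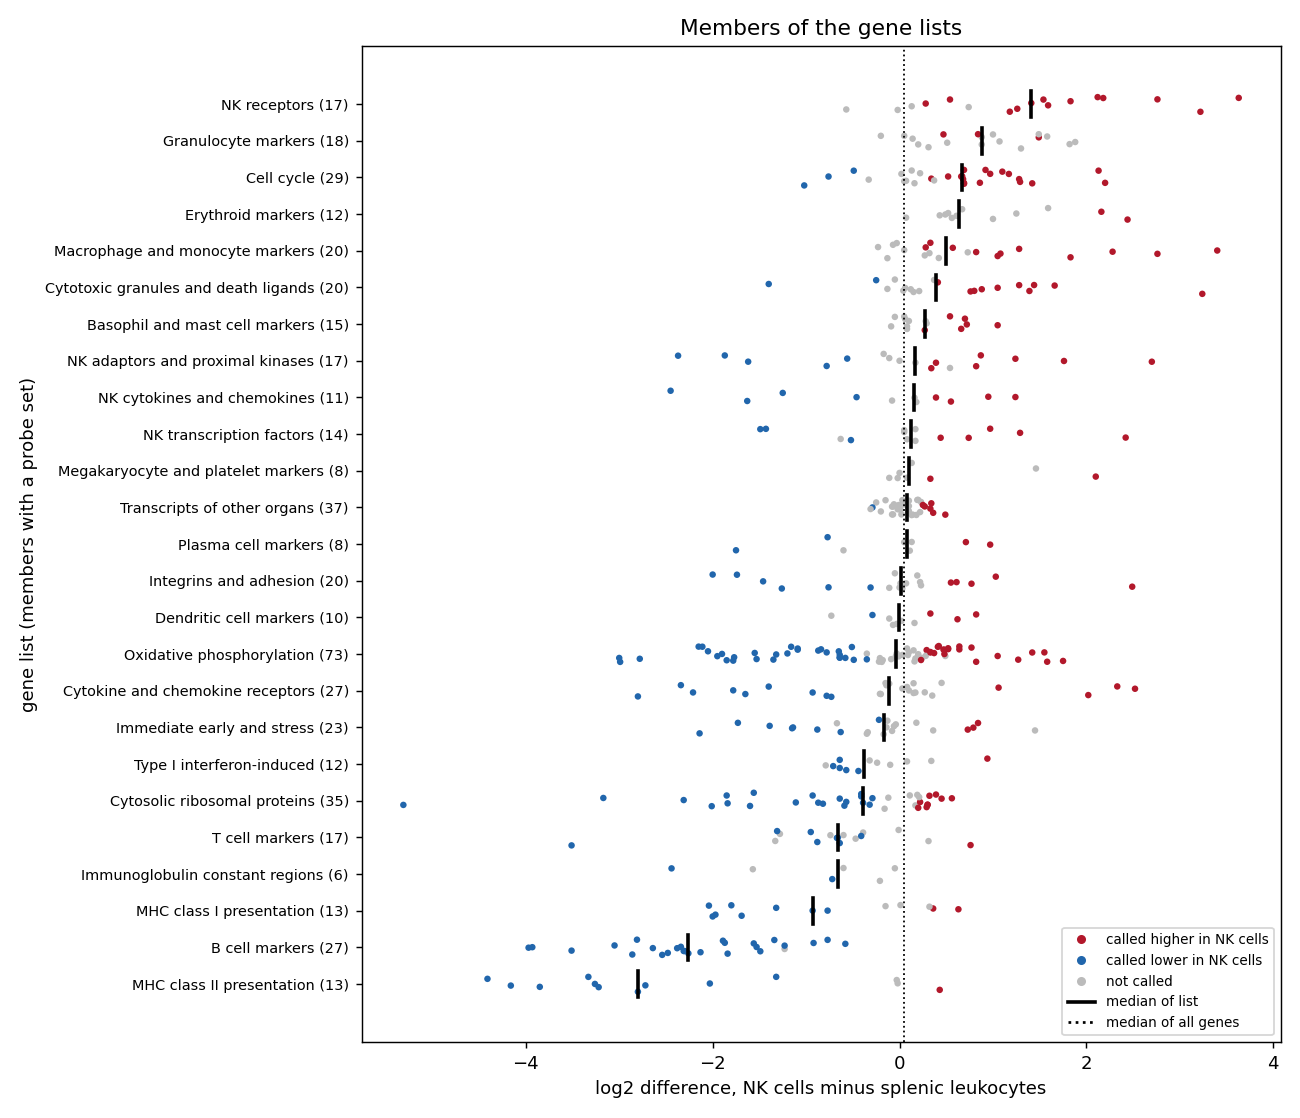
Log2 difference, NK cells minus splenic leukocytes, of every member of 25 gene lists (rows, ordered by median; number of members with a probe set in brackets); points are genes, coloured by call, thick bars are list medians and the dotted line is the median of all genes (0.05). NK receptors stand farthest to the right (median 1.41), and B cell markers (-2.26) and MHC class II presentation (-2.80) farthest to the left.

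Among the 15 largest rises were NK receptors, Fas ligand and genes that several cell types express. In NK cells Ctla2b, a homologue of cathepsin propeptides, was at 8.42, 7.81, 7.97 and 7.95 log2 units, against 3.90, 4.03, 3.97 and 3.99 in splenic leukocytes. These 4 values, here and below, follow the order B6g7 replicates 1 and 2, then NOD replicates 1 and 2. The 2 populations did not overlap, the difference was 4.07 (SE 0.13, adjusted p = 3.03e-07), and the other 16 arrays lay at 3.64 to 5.66, below all 4 NK arrays. Its near-identical neighbour Ctla2a may share this signal. Of the 15 genes with the largest rises among those without overlap, 12 lay in NK cells above all 16 other arrays, and all 15 were also higher in NK cells than in lymph node T cells. Over all genes, 2.39% lay above all 16 others in NK cells. The 15 were chosen for high values in these same NK arrays, so a higher share among them follows in part from that choice.

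Besides Ctla2b and the genes taken up below, 4 of the 15 are genes of many tissues. Osbpl5, a lipid transfer protein, was at 10.07, 9.48, 9.86 and 9.23 in NK cells against 6.72, 6.76, 6.60 and 6.77 in splenic leukocytes (7.73-fold, adjusted p = 6.23e-06). F2r, the thrombin receptor PAR1, was at 8.79, 8.04, 8.53 and 7.87 against 5.12, 5.14, 5.51 and 5.77 in splenic leukocytes, but its other 2 probe sets differed by -0.01 to 0.15. Cbx6, a polycomb protein, was at 9.51, 9.16, 8.71 and 8.86 in NK cells against 6.77, 6.64, 6.08 and 5.67 in splenic leukocytes, with another probe set at a difference of 0.10. Slc12a2, a sodium, potassium and chloride cotransporter, was at 7.86, 8.18, 8.53 and 8.13 in NK cells against 4.97, 4.63, 4.54 and 4.89 in splenic leukocytes (log2 3.42, adjusted p = 2.06e-06). In all 4 genes the populations did not overlap. For Slc12a2 the 16 other arrays, at 5.04 to 7.87, also lay above all 4 spleen arrays.

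Anxa1, Lilr4b and Dstn also rose strongly, and each had its highest NK value in NOD replicate 2. Anxa1, annexin A1, which is abundant in granulocytes and monocytes, was at 9.34, 9.96, 9.41 and 10.94 in NK cells against 5.88, 6.39, 6.29 and 5.79 in splenic leukocytes. Lilr4b, a receptor of myeloid cells and of activated NK cells, was at 6.99, 7.89, 7.93 and 9.14 against 4.24, 4.51, 4.37 and 4.25 in splenic leukocytes. Dstn, an actin-severing protein, was at 8.42, 9.57, 8.32 and 10.52 against 6.97, 6.53, 6.33 and 6.09. The same NK array had the highest mean of the granulocyte markers, described below, and without both NK arrays numbered 2 (a fit added after the data were seen) the differences were 3.29 for Anxa1, 3.12 for Lilr4b and 1.89 for Dstn, which all passed.

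Receptors of NK cells rose as a group. Of 17 with a probe set, 13 rose, 0 fell and 4 did not pass, with a median difference of 1.41, where over all genes 22.9% rose and the median was 0.05. In both populations 7 of the 17 averaged at or under the level of absent transcripts. In NK cells 8 of the 17 lay above all 16 other arrays, against 2.39% of all genes. Klra3, an inhibitory Ly49 receptor for MHC class I (Ly49C), was at 10.07, 8.77, 8.95 and 8.32 in NK cells against 5.97, 6.18, 4.85 and 4.59 in splenic leukocytes, at least 8.38-fold higher (log2 3.63, SE 0.28, adjusted p = 3.07e-05). All 4 NK arrays lay above all 4 spleen arrays. The probe set shares sequence with other Ly49 genes, so it may read several of them. Other Ly49 probe sets of this kind moved the same way by smaller amounts, with Klra7 (Ly49G) at 1.54, Klra6 at 1.41 and Klra5 at 1.26, all 3 passing. Klra5 averaged under the level of absent transcripts in both populations. Klra2 differed by 0.13 (adjusted p = 0.32), at levels of 3.03 to 3.5 in the 8 arrays.

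Klrd1, the CD94 chain that pairs with NKG2 receptors and binds the MHC class Ib molecule Qa-1, was at 9.93, 8.87, 9.56 and 8.92 in NK cells against 6.79, 6.71, 6.59 and 6.16 in splenic leukocytes. That was 6.75-fold higher (log2 2.76, SE 0.24, adjusted p = 5.33e-05), and the 16 other arrays lay at 4.33 to 8.26. Its partner Klrc1 (NKG2A) was at 5.19, 4.88, 5.09 and 4.81 against 4.93, 5.23, 5.19 and 4.70 in splenic leukocytes (-0.02, adjusted p = 0.92), with all 8 values below the level of absent transcripts, so this probe set does not measure the partner. Cd244a, the receptor 2B4 for CD48, was at 7.81, 7.49, 6.83 and 7.20 in NK cells against 4.16, 3.94, 4.26 and 4.10 in splenic leukocytes, at least 2.79-fold higher (log2 3.22, SE 0.17, adjusted p = 5.14e-06). All 4 NK arrays were above and all 4 spleen arrays below the level of absent transcripts.

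Klrk1, which encodes the activating receptor NKG2D, was at 8.11, 7.48, 6.97 and 7.07 in NK cells against 6.03, 5.92, 5.71 and 5.59 in splenic leukocytes (at least 2.82-fold, log2 1.59, SE 0.15, adjusted p = 8.10e-05), although a second probe set differed by -0.03. Ncr1, which encodes the NK-specific receptor NKp46, was at 5.45, 5.12, 5.94 and 6.08 in NK cells against 4.46, 4.14, 4.88 and 4.37 in splenic leukocytes (log2 1.18, SE 0.15, adjusted p = 4.41e-04). The populations did not overlap and the 16 other arrays lay at 3.49 to 4.90, but the mean of both populations was at or under the level of absent transcripts, so no fold is given. Klrg1, an inhibitory receptor of mature NK cells that binds cadherins, was at 6.66, 7.40, 6.59 and 6.54 against 5.31, 4.99, 4.97 and 4.61 in splenic leukocytes (at least 1.93-fold, adjusted p = 6.28e-05). Of the receptors that did not pass, Cd96 was at -0.57 (adjusted p = 0.0506), with a level in NK cells under that in lymph node T cells (difference -1.28, adjusted p = 0.00528).

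Klrb1b and Klrb1a are lectin-like receptors of the NKR-P1 family. Klrb1b, an inhibitory member, was at 8.47, 8.46, 9.45 and 9.11 in NK cells against 6.94, 6.77, 6.44 and 6.63 in splenic leukocytes (4.53-fold, adjusted p = 1.12e-04). Klrb1a was at 8.28, 7.65, 4.80 and 4.60 in NK cells against 4.31, 4.45, 4.0 and 4.07 in splenic leukocytes, so that both B6g7 NK arrays stood well above both NOD NK arrays. The difference between NK cells and splenic leukocytes was 3.59 in B6g7 and 0.66 in NOD, an interaction of 2.92 (SE 0.28, limma, adjusted p = 0.0557) that did not pass. Only the B6g7 NK arrays were above the level of absent transcripts, so 0.66 does not compare measured levels. Crtam, a receptor of activated NK and CD8 T cells, was at 6.68, 4.72, 3.83 and 3.56 against 4.13, 3.96, 3.77 and 3.97 in splenic leukocytes and did not pass (adjusted p = 0.245), with B6g7 replicate 1 alone high. No single-gene probe set was matched for Klrb1c (NK1.1) or Klra8.

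Of 17 adaptors and kinases that act below NK receptors 7 were higher, 5 lower and 5 did not pass (median 0.17), where 22.9% of all genes rose and 23% fell. Over all 24 arrays 3 were higher and 4 lower. Tyrobp (DAP12), the signalling partner of activating Ly49 and CD94 receptors, was at 11.07, 11.64, 10.05 and 11.31 in NK cells against 9.05, 8.53, 8.03 and 7.67 in splenic leukocytes, 6.48-fold higher (log2 2.70, SE 0.28, adjusted p = 1.22e-04). Tyrobp is also expressed by myeloid cells. NOD replicate 1, with the lowest mean of the granulocyte markers, had the lowest NK value, still above all 4 spleen arrays. Its mean of the macrophage and monocyte markers, however, was 6.39, above the 5.55 to 6.04 of the spleen arrays. The part of myeloid cells in the Tyrobp difference was not tested. Fcer1g, the Fc receptor gamma chain that serves NKp46 and CD16, was at 6.34, 6.63, 6.02 and 6.84 against 4.88, 4.75, 4.54 and 4.64 in splenic leukocytes (at least 1.52-fold, adjusted p = 7.88e-05). The kinase Fyn rose by 1.24 (adjusted p = 0.004), to levels within the 7.48 to 9.20 of the other 16 arrays. Of the 5 that fell, all but Cd247 (-0.78) also act in B cell receptor signalling, among them Vav1 (-0.56). The part of B cells in these falls was not tested. The kinase Syk was at 7.46, 7.74, 7.6 and 7.76 in NK cells against 9.41, 9.26, 9.03 and 9.36 in splenic leukocytes (log2 -1.62, adjusted p = 1.34e-05), the phospholipase Plcg2 was lower by at least 2.4-fold, and the phosphatase Ptpn6 (SHP-1) fell by 2.37 log2 units (SE 0.22, adjusted p = 6.80e-05). Syk in NK cells lay within the 6.34 to 9.0 of the 16 other arrays.

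Of genes of the cytotoxic granule and death ligands, 10 of 20 rose, 2 fell and 8 did not pass (median 0.39). Among all genes 22.9% rose and 23% fell. In both populations 9 of the 20 averaged at or under the level of absent transcripts. Fasl, Fas ligand, was at 8.49, 8.11, 8.14 and 8.06 in NK cells against 5.35, 4.95, 4.92 and 4.61 in splenic leukocytes, at least 5.09-fold higher (log2 3.24, SE 0.13, adjusted p = 1.18e-06). All 4 NK arrays lay close together and above the 5.07 to 7.17 of the other 16 arrays. Ctsc, the cathepsin that activates granzymes, was at 8.19, 8.33, 8.27 and 8.38 in NK cells against 6.60, 6.48, 6.78 and 6.66 in splenic leukocytes (3.16-fold, adjusted p = 1.88e-06). Serpinb9, the granzyme B inhibitor that protects the killer cell, rose 2.72-fold (log2 1.44, SE 0.24, adjusted p = 0.00164), and Srgn, the granule proteoglycan serglycin, 2.62-fold (adjusted p = 1.07e-04).

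The granzymes with a measurable level were higher in NK cells. Gzmb was at 8.18, 7.75, 6.63 and 7.10 in NK cells against 6.42, 6.51, 5.86 and 5.75 in splenic leukocytes (2.43-fold, log2 1.28, SE 0.15, adjusted p = 2.47e-04). Gzma was at 9.10, 9.07, 8.95 and 8.75 in NK cells against 8.50, 8.33, 7.93 and 6.90 in splenic leukocytes (2.08-fold, log2 1.05, SE 0.24, adjusted p = 0.00777). The NK arrays of Gzma lay close together, and the spleen arrays were spread more widely, with NOD replicate 2 the lowest. Prf1, perforin, was at 6.75, 6.18, 6.57 and 5.92 against 6.27, 6.03, 5.82 and 5.80 in splenic leukocytes and did not pass (log2 0.37, SE 0.17, adjusted p = 0.107), with both populations close to the level of absent transcripts. Lymph node T cells also had 2 rounds of amplification, but smaller 3′ minus 5′ control differences than the NK cells. Against them Gzma was higher by 3.41 (adjusted p = 2.00e-05), Gzmb by 1.82 (adjusted p = 0.00244) and Prf1 by 1.10 (adjusted p = 0.00357). Gzmc, Gzmd, Gzmf and Gzmg, granzymes of activated killer cells, lay between 3.22 and 4.10 log2 units in the 8 arrays, below the level of absent transcripts. Stxbp2, which drives granule fusion, fell by 1.4 (adjusted p = 5.42e-05), but its other probe set was at 0.62.

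Upstream sequence of 3 of these genes is shown because each rose and holds a match to TGTGGT, the core bound by Runx factors, which act in NK and CD8 T cells. The 120 bases before the gene start are given 5′ to 3′ on the gene's strand (RefSeq, GRCm38.p6), with the core or its reverse complement in capitals. Gzma lies on the minus strand at chr13:113100982-113101101, Gzmb on the minus strand at chr14:56262335-56262454 and Ncr1 on the plus strand at chr7:4337595-4337714.
Gzma: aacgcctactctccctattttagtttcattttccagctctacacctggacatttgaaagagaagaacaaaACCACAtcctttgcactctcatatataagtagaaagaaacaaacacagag
Gzmb: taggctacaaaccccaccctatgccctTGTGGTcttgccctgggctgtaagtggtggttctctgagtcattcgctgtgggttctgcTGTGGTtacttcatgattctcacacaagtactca
Ncr1: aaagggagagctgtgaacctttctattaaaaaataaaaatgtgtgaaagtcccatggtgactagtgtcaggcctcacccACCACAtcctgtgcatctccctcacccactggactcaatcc
Over the 250 bases before the start, searched on both strands, 6 of the 20 NK receptor and granule genes that rose and have an entry hold the core, against 14.2% of 27025 promoters. A match is a description of the letters and not a binding site.

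Of transcription factors of the NK lineage 5 of 14 rose, 3 fell and 6 did not pass (median 0.13), where 22.9% of all genes rose and 23% fell. The rises were 3 without spleen B6g7 replicate 1, without NK NOD replicate 1 or over all 24 arrays. Id2, the inhibitor of E proteins that innate lymphocytes require, was at 10.64, 10.57, 9.88 and 10.16 in NK cells against 7.79, 7.75, 8.42 and 7.62 in splenic leukocytes, 5.35-fold higher (log2 2.42, SE 0.22, adjusted p = 6.15e-05). All 4 NK arrays lay above the 5.79 to 8.84 of the 16 other arrays. Id3, a related inhibitor of naive lymphocytes, moved the other way, at 6.19, 6.08, 6.20 and 5.99 in NK cells against 7.80, 7.41, 7.84 and 7.12 in splenic leukocytes (-1.43, adjusted p = 1.93e-04). Eomes, a T-box factor of mature NK cells, was at 7.58, 6.74, 7.29 and 6.91 in NK cells against 5.67, 5.90, 5.93 and 5.86 in splenic leukocytes (at least 2.37-fold, adjusted p = 6.45e-04), and a second probe set rose by 2.71. Prdm1 (Blimp-1) rose by 0.97 and Gata3 by 0.74 (adjusted p = 0.00335 and 0.026), and the call of Gata3 was lost in 4 of the 8 fits that left out 1 array (adjusted p 0.0563 to 0.0691) and over all 24 arrays (0.0575). Ets1 fell by 1.49 (adjusted p = 0.012), with the NK arrays at 6.52, 5.11, 6.62 and 5.23 so that replicate 1 was the higher on both backgrounds.

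Of 11 cytokine and chemokine genes 4 were higher, 4 lower and 3 did not pass, where 22.9% of all genes rose and 23% fell. Without spleen B6g7 replicate 2, 2 were higher and 3 lower, and over all 24 arrays 0 were higher and 3 lower. Ccl5, a chemokine stored by NK and memory T cells, was at 11.56, 10.97, 11.23 and 10.35 in NK cells against 10.26, 9.95, 9.76 and 9.16 in splenic leukocytes (2.37-fold, log2 1.24, SE 0.23, adjusted p = 0.00289). Ccl5 was far lower in lymph node T cells (NK minus T 5.23, adjusted p = 7.95e-05). Ifng, which encodes interferon gamma, a main product of activated NK cells, was called (log2 0.95, adjusted p = 9.63e-05) at 4.34, 4.12, 4.23 and 4.14 in NK cells against 3.27, 3.08, 3.45 and 3.22 in splenic leukocytes, all below the level of absent transcripts. Ltb and Lta, the lymphotoxin genes, and Tgfb1 were lower, although a second Lta probe set gave 0.71. Ltb was at 9.97, 8.86, 10.25 and 9.75 in NK cells against 11.43, 11.27, 11.49 and 11.16 in splenic leukocytes, and Tgfb1 at 5.56, 5.45, 5.58 and 5.64 against 8.30, 7.88, 7.86 and 8.0. For Tgfb1 the 16 other arrays were at 5.17 to 6.32, also below all 4 spleen arrays.

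Among cytokine and chemokine receptors 4 of 27 rose, 9 fell and 14 did not pass, where 22.9% of all genes rose and 23% fell. Both chains of the interleukin 18 receptor rose. Il18r1 was at 8.71, 7.68, 8.49 and 7.70 in NK cells against 5.59, 5.71, 5.6 and 5.63 in splenic leukocytes (at least 4.92-fold, log2 2.52, SE 0.24, adjusted p = 7.71e-05), above the 5.03 to 6.34 of the 16 other arrays. Il18rap rose by 1.06 (adjusted p = 1.50e-04). Ccr2, a chemokine receptor of monocytes and some NK cells, was at 8.21, 7.56, 6.95 and 7.22 in NK cells against 5.42, 5.39, 5.15 and 4.67 in splenic leukocytes (at least 3.1-fold, adjusted p = 2.03e-05), and Il10rb rose 4.07-fold (adjusted p = 9.12e-06). Il2rb, the shared beta chain for interleukins 2 and 15 and a defining NK marker, was at 5.59, 5.15, 5.37 and 5.37 in NK cells against 5.65, 5.77, 5.33 and 5.57 in splenic leukocytes and did not pass (adjusted p = 0.179). All 8 values lay below the level of absent transcripts, so the probe set gives no level for it. Of the 9 receptors that fell, Ccr7, which guides naive T cells to lymph nodes, was at 4.21, 4.15, 4.33 and 4.06 in NK cells against 6.93, 6.65, 7.38 and 6.98 in splenic leukocytes (at least 2.2-fold lower, adjusted p = 2.44e-06), below the 4.35 to 6.54 of the other 16. Cxcr5, Il4ra and Ccr6 fell by 2.34, 2.21 and 1.78 on the log2 scale, and a second probe set of Il4ra gave 0.49.

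Of integrin and adhesion genes 5 of 20 rose, 6 fell and 9 did not pass, shares near the 22.9% and 23% of all genes. Without spleen NOD replicate 2, 3 rose and 5 fell. Itgb1, the beta 1 chain, was at 11.08, 11.04, 11.24 and 11.16 in NK cells against 8.25, 8.09, 9.38 and 8.83 in splenic leukocytes (5.63-fold, adjusted p = 2.12e-05). Itga2, whose product CD49b is a marker of mouse NK cells, was called at a difference of 0.28 (adjusted p = 0.0409), at 4.22 to 4.77 log2 units in the 8 arrays, and quantile normalization ended this call (adjusted p = 0.0827). Icam2 was at 6.61, 6.66, 6.57 and 6.5 in NK cells against 8.95, 8.35, 8.68 and 8.34 in splenic leukocytes, 3.99-fold lower, and Cd2 at 8.31, 7.58, 8.18 and 7.77 against 9.44, 9.05, 9.35 and 9.05. Both were also below all 16 other arrays in NK cells.

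**Figure D2:**
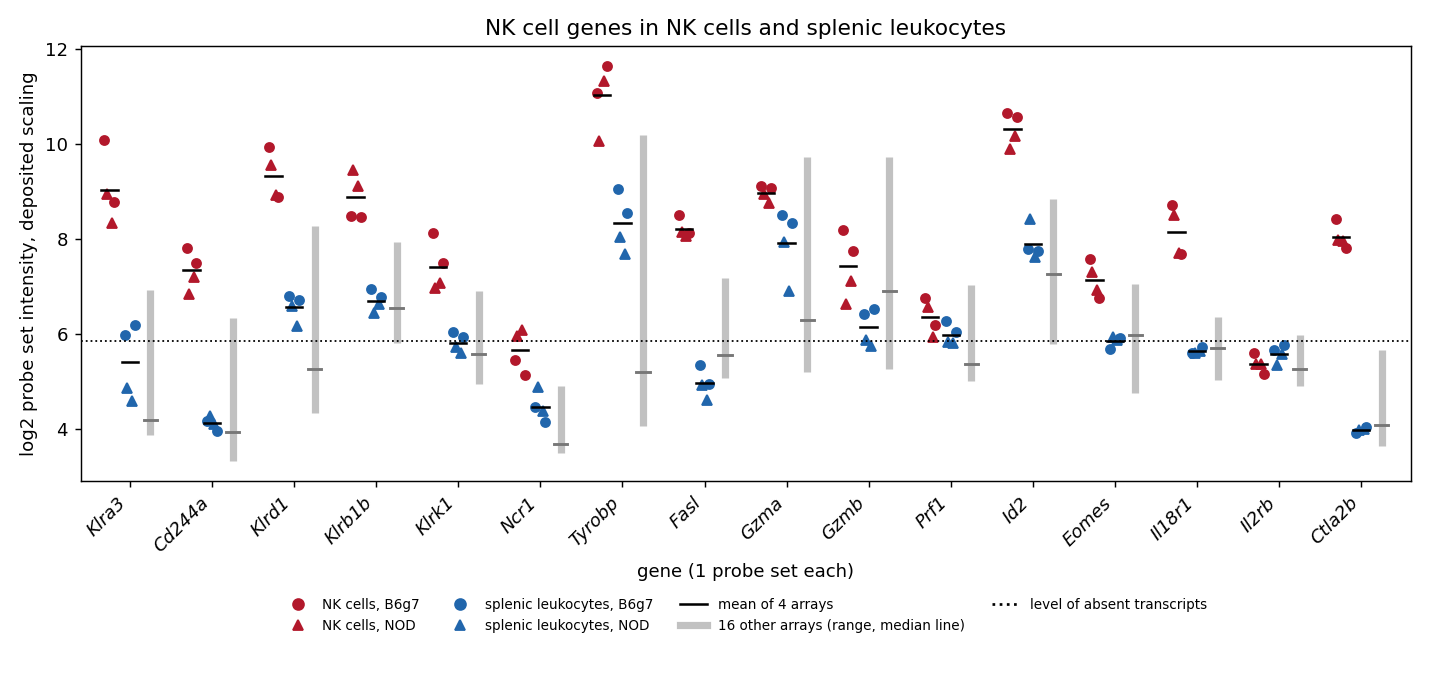
Log2 probe set intensity of 16 NK cell genes in each NK array (red, left), each spleen array (blue, middle) and over the 16 other arrays of the series (grey, range and median); circles are B6g7, triangles NOD, black bars the means of 4 arrays and the dotted line the level of absent transcripts (5.85). For Klra3, Cd244a, Klrd1, Klrb1b, Klrk1, Ncr1, Fasl, Id2, Il18r1 and Ctla2b the 4 NK arrays lie above the 4 spleen arrays and all 16 others, while Prf1 and Il2rb overlap with spleen.

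B cell genes were lower in NK cells with 1 exception, where 23% of all genes fell. Of 27 B cell markers 26 were lower in NK cells, 0 higher and 1 (Cd24a) did not pass, with a median of -2.26, and their mean per array was 6.01 to 6.51 in NK cells against 8.23 to 8.81 in splenic leukocytes. Fewer B cells and less RNA per cell cannot be told apart in such bulk samples. Cd79a, the alpha chain that signals for the B cell receptor, was at 6.34, 6.41, 6.61 and 6.43 in NK cells against 10.22, 10.81, 9.82 and 10.82 in splenic leukocytes, 15.7-fold lower (log2 -3.97, SE 0.22, adjusted p = 6.11e-06). The 16 other arrays, of T cells and infiltrates, were at 5.86 to 7.11. Blnk, the B cell linker, was at 5.43, 5.57, 5.66 and 5.48 in NK cells against 9.26, 8.90, 9.13 and 8.88 in splenic leukocytes (at least 9.15-fold lower, adjusted p = 2.72e-07), and Mef2c fell by 3.05 (adjusted p = 3.32e-06). For 19 of the 26 genes that fell, all 16 other arrays were also below all 4 spleen arrays. The 26 were called against the same spleen arrays, so that count follows in part from the choice. The share over all genes was not counted.

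The B cell fall was uneven between genes. Ms4a1 (CD20) was at 8.82, 9.58, 9.64 and 8.94 in NK cells against 10.41, 10.21, 9.96 and 10.10 in splenic leukocytes (1.89-fold lower, log2 -0.92, SE 0.21, adjusted p = 0.00732), and a second probe set fell by 2.92. Cd79b, the partner of Cd79a, was at 7.53, 8.80, 8.31 and 8.22 in NK cells against 11.12, 11.07, 11.22 and 10.71 in splenic leukocytes. In NK cells 15 of the 27 B cell genes were higher than in lymph node T cells and 0 lower, beside 9.15% and 12.3% of all genes. Ms4a1 was higher by 2.63 (adjusted p = 2.83e-04) and Cd79b by 2.62 (adjusted p = 2.19e-04). Cd72 was an exception by background. It was at 4.50, 4.31, 3.40 and 3.30 in NK cells against 9.18, 8.78, 3.21 and 3.56 in splenic leukocytes, thus high only in the 2 B6g7 spleen arrays of these 8. Its difference was -4.58 in B6g7 and -0.03 in NOD, an interaction of -4.54 (SE 0.25, adjusted p = 0.00483). All NOD values, in NK cells and splenic leukocytes, lay below the level of absent transcripts, so -0.03 does not compare measured levels. Over both backgrounds its adjusted p was 0.0487, and other settings of the fit ended that call, with an adjusted p of 0.195 without the background block.

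Immunoglobulin variable segments filled 8 of the 15 largest falls. Igkv6-14 was at 4.32, 4.35, 4.82 and 4.33 in NK cells against 10.17, 10.23, 9.97 and 10.41 in splenic leukocytes (at least 20.3-fold lower, adjusted p = 1.10e-07), and Ighv14-2 at 4.02, 3.98, 4.23 and 3.95 against 9.04, 9.35, 9.47 and 9.40 (at least 11-fold lower, adjusted p = 3.47e-08). Probe sets of such segments share sequence, and a second one for Igkv6-14 gave a difference of 0.04. Ighm, the constant region of IgM, was at 9.29, 9.75, 10.06 and 10.47 in NK cells against 12.29, 12.31, 12.32 and 12.42 in splenic leukocytes (5.44-fold lower, log2 -2.44, SE 0.17, adjusted p = 1.74e-05). Its 15 other probe sets ran from -4.18 to 0.30. Of 6 constant region and joining chain genes 2 fell, where 23% of all genes did. Igha, at 6.47, 4.89, 7.38 and 8.6 in NK cells against 8.23, 9.21, 6.72 and 9.46 in splenic leukocytes, varied widely within both populations.

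MHC class II genes also fell, where 23% of all genes did. Of 13 genes of class II presentation 10 were lower, 1 (Ctss) higher and 2 did not pass, with a median of -2.80. H2-DMb1, a chain of the peptide editor H2-M, was at 6.61, 6.78, 6.99 and 7.07 in NK cells against 11.25, 11.25, 11.36 and 11.22 in splenic leukocytes, 21.2-fold lower (log2 -4.41, SE 0.09, adjusted p = 4.24e-08). H2-Aa, the alpha chain of I-A, was at 8.01, 8.84, 9.09 and 9.80 in NK cells against 12.19, 12.29, 12.24 and 12.35 in splenic leukocytes (10.1-fold lower, adjusted p = 3.25e-05), and the invariant chain gene Cd74 at 8.57, 9.27, 10.06 and 10.21 against 12.68, 12.88, 12.69 and 12.91 (9.59-fold lower, adjusted p = 3.18e-05). In H2-Aa and Cd74 the B6g7 NK arrays were lower than the NOD NK arrays, and NK cells were above lymph node T cells (NK minus T 3.68 and 3.70, adjusted p = 1.97e-04 and 1.97e-04). H2-Ob, a chain of the H2-M inhibitor H2-O, fell by 3.85, and Ciita, the class II transactivator, fell by 1.32, to 5.6, 5.69, 5.94 and 5.88 in NK cells against 6.92, 6.87, 7.44 and 7.17 in splenic leukocytes. H2-Ea was at 3.41 to 3.65 log2 units in the 8 arrays. The H2g7 haplotype that both backgrounds carry makes no I-E alpha chain.

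The upstream sequences of 6 class II genes that fell together are shown, with the pentamer ATTGG of the Y box in capitals, in either orientation. Class II promoters are known for an X box and, nearer the start, a Y box bound by the factor NF-Y. Each line gives the 120 bases before the gene start, 5′ to 3′ on the gene's strand (RefSeq, GRCm38.p6). H2-Aa lies on the minus strand at chr17:34287824-34287943, and the others on the plus strand, H2-Eb1 at chr17:34305747-34305866, H2-DMb1 at chr17:34153071-34153190, H2-DMb2 at chr17:34145129-34145248, H2-Oa at chr17:34092259-34092378 and H2-Ob at chr17:34238785-34238904.
H2-Aa: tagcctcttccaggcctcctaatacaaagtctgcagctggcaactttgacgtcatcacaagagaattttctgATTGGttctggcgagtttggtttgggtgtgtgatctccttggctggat
H2-Eb1: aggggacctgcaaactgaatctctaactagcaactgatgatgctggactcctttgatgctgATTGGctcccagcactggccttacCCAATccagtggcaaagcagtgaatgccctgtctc
H2-DMb1: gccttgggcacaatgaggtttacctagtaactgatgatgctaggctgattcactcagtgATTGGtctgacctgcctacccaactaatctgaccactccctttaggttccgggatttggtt
H2-DMb2: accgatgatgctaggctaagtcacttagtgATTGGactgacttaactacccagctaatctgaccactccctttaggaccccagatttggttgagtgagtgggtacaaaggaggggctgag
H2-Oa: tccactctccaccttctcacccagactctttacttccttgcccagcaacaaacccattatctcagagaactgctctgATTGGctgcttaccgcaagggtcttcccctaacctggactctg
H2-Ob: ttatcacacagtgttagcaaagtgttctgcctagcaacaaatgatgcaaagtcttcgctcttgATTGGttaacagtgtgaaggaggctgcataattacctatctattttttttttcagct
Of the 8 H2 class II genes that fell, 7 have an entry and 6 hold ATTGG or its reverse complement in the 250 bases before the start, against 34.5% of 27025 promoters. The match in the gene's own direction began between position -90 (H2-DMb2) and position -43 (H2-Oa), counted from the gene start. H2-DMa, which fell by 2.72 (adjusted p = 2.21e-06), has no match in that window.

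**Figure D3:**
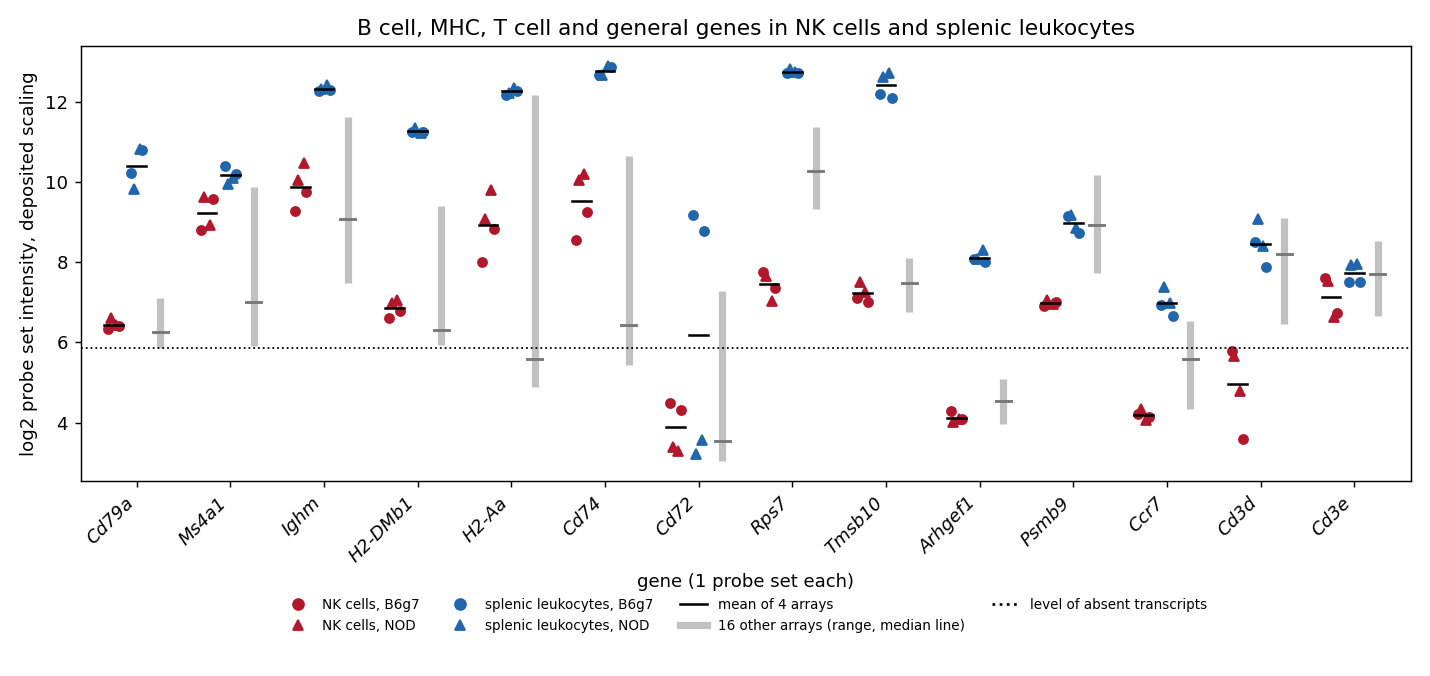
Log2 probe set intensity of 14 genes in each NK array (red, left), each spleen array (blue, middle) and over the 16 other arrays (grey, range and median); symbols as in the plot of NK cell genes. Cd79a, H2-DMb1, H2-Aa, Rps7 and Tmsb10 lie in NK cells below all 4 spleen arrays, for Tmsb10 and Arhgef1 the 16 other arrays lie around the NK values, and Cd3e and, in NOD, Cd72 overlap between the populations.

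Genes of MHC class I presentation fell by less, with 8 of 13 lower, 2 higher and 3 not passing (median -0.93). Among all genes 23% were lower and 22.9% higher. In the fit over all 24 arrays 7 of the 13 were lower and 0 higher. The light chain B2m rose by 0.36 (adjusted p = 0.00348), while H2-K1 and H2-D1, whose probe sets share sequence with other class I genes, fell by 1.80 and 1.97. The immunoproteasome gene Psmb9 was at 6.92, 7.02, 7.05 and 6.97 in NK cells against 9.17, 8.74, 9.19 and 8.86 in splenic leukocytes (4-fold lower, adjusted p = 5.84e-06). Psmb9, the proteasome activator Psme1 and tapasin (Tapbp) were in NK cells also below all 16 other arrays. Other probe sets gave -0.96 to 0.32 for Tapbp and 0.12 for Psme1.

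T cell genes were lower in part. Of 17 T cell markers 8 fell, 1 rose and 8 did not pass, with a median of -0.66, where 23% of all genes fell. Quantile normalization gave 5 falls, and without NK B6g7 replicate 1 there were 13. The largest fall was that of Cd3d, a chain of the T cell receptor complex, at 5.78, 3.59, 5.67 and 4.80 in NK cells against 8.51, 7.88, 9.08 and 8.40 in splenic leukocytes (at least 6.14-fold lower, adjusted p = 4.20e-04), although its second probe set differed by -0.09. Cd4 was at 6.43, 6.25, 6.54 and 6.34 in NK cells against 7.08, 7.29, 7.33 and 7.64 in splenic leukocytes (-0.95, adjusted p = 1.65e-04). Cd3e was at 7.62, 6.74, 7.53 and 6.63 against 7.51, 7.51, 7.94 and 7.95 in splenic leukocytes (-0.60, adjusted p = 0.0836) and Cd8a at 7.02, 5.91, 7.22 and 6.19 against 7.23, 6.84, 7.96 and 7.26 (-0.74, adjusted p = 0.0905), and neither passed. Txk, a kinase of T and NK cells, rose by 0.76 (adjusted p = 0.0323), a call lost in 5 of the 8 fits that left out 1 array.

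NK replicate 1 of both backgrounds carried more T cell transcript than replicate 2, and in B6g7 replicate number is also age (6 and 3 weeks). The mean of the 17 T cell markers was 7.27 and 7.10 in NK replicate 1 (B6g7 and NOD) and 5.97 and 6.33 in NK replicate 2, against 7.20 to 7.59 in splenic leukocytes. Cd5 was at 7.72, 5.44, 7.85 and 6.25 in NK cells and 8.02, 7.61, 8.61 and 8.34 in splenic leukocytes, and Il7r, the interleukin 7 receptor of naive T cells, at 9.57, 5.77, 9.21 and 6.37 in NK cells and 7.57, 7.25, 7.40 and 7.29 in splenic leukocytes. Neither passed (adjusted p = 0.062 and 0.761). Il7r fell by 1.31 without both NK arrays numbered 1 (adjusted p = 6.09e-04) and rose by 2.01 without both numbered 2 (adjusted p = 1.18e-05). Cd8b1, the CD8 beta chain of conventional CD8 T cells, was at 10.42, 5.07, 5.66 and 4.92 in NK cells, so that B6g7 replicate 1 alone was high, against 8.42, 7.65, 5.96 and 5.61 in splenic leukocytes. Without both NK arrays numbered 1, also a fit added after the data were seen, 13 of 17 T cell markers fell (median -1.04), and without both numbered 2, 6 fell and 2 rose (-0.32).

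Markers of macrophages were higher in NK cells. Of 20 macrophage and monocyte markers 11 rose, 0 fell and 9 did not pass (median 0.50), where 22.9% of all genes rose. Of these markers 16 were higher in NK cells than in lymph node T cells, against 9.15% of all genes. Vcam1, an adhesion molecule of stromal cells and of macrophages of the spleen's red pulp, was at 9.46, 10.39, 9.92 and 8.13 in NK cells against 6.77, 6.07, 6.17 and 5.29 in splenic leukocytes (10.6-fold, log2 3.40, SE 0.41, adjusted p = 2.99e-04), and 2 other probe sets ran from -0.01 to 1.31. Spic, the transcription factor of red pulp macrophages, was at 6.57, 7.56, 7.0 and 6.07 in NK cells against 4.08, 3.65, 4.35 and 4.06 in splenic leukocytes (at least 1.93-fold, adjusted p = 1.75e-04). Both lay above all 16 other arrays, which ran over 4.30 to 5.99 and 3.08 to 4.67. Their highest NK value was in B6g7 replicate 2, which also had the highest mean of the macrophage markers, 7.24 against 6.39 to 6.52 in the other NK arrays and 5.55 to 6.04 in splenic leukocytes. Without both NK arrays numbered 2 the differences were 3.61 for Vcam1 and 2.75 for Spic, and both passed. Csf1r, the receptor for macrophage colony-stimulating factor, was at 8.35, 9.73, 8.12 and 8.86 in NK cells against 7.42, 6.96, 6.66 and 6.71 in splenic leukocytes (3.56-fold, adjusted p = 0.00138), but a second probe set differed by 0.05. The mannose receptor Mrc1 rose by 2.28, Adgre1 (F4/80) by 1.08 and Cd14 by 1.05, all 3 passing, with Mrc1 under the level of absent transcripts on average in both populations. Other macrophage genes did not pass, among them C1qa at 0.73, C1qc at -0.03 and Cd68 at -0.13.

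Granulocyte and erythroid transcripts stood apart between NK arrays. S100a8, a calcium-binding protein abundant in neutrophils, was at 9.04, 11.29, 5.03 and 12.58 in NK cells against 7.85, 9.66, 8.62 and 6.62 in splenic leukocytes and did not pass (log2 1.30, SE 1.47, adjusted p = 0.504). The NK arrays spread more widely than the spleen arrays, with replicate 2 of each background the higher. Ngp, Camp and Ltf, proteins of neutrophil granules, had the same order, Ltf at 5.86, 8.11, 4.87 and 10.05 in NK cells against 5.49, 6.70, 5.6 and 5.14 in splenic leukocytes. Over 18 granulocyte markers the mean was 5.95, 6.94, 5.07 and 7.92 in NK cells against 5.46, 6.09, 5.59 and 5.26 in splenic leukocytes. Of the 18, 3 rose, 0 fell and 15 did not pass, where 22.9% of all genes rose. Lyz2, the lysozyme of granulocytes and macrophages, was at 5.83, 8.75, 6.02 and 10.54 in NK cells against 8.22, 8.44, 7.86 and 7.52 in splenic leukocytes (adjusted p = 0.872), higher by 1.63 without both NK arrays numbered 1 and lower without both numbered 2 (-2.09). Without both NK arrays numbered 1, 14 of 18 rose (median 1.71), and without both numbered 2, 2 rose and 1 fell (median -0.04). With 1 array left out, 8 rose without NK NOD replicate 1, and 1 rose without NK B6g7 replicate 2, spleen B6g7 replicate 1 or spleen NOD replicate 1. Ly6g and Cxcr2, defining neutrophil genes, were at 3.77 to 5.16 and 3.06 to 3.36 log2 units in the 8 arrays, under the level of absent transcripts.

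Erythroid genes followed the same NK arrays, and 2 of 12 rose over the 8 arrays, where 22.9% of all genes did. The mean of 12 erythroid markers was 7.39 and 7.48 in NK replicate 2 (B6g7 and NOD) and 5.90 and 5.81 in NK replicate 1, against 5.46 to 5.88 in splenic leukocytes. Car2, a carbonic anhydrase, was at 8.02, 9.96, 7.87 and 9.80 in NK cells against 6.55, 6.10, 6.87 and 6.37 in splenic leukocytes (5.42-fold, adjusted p = 0.00525). Car1 was at 4.53, 7.63, 5.23 and 7.48 in NK cells against 4.97, 4.63, 5.29 and 4.98 in splenic leukocytes and did not pass (adjusted p = 0.173). Of the 12, 2 rose in all, 11 rose without both NK arrays numbered 1 and 1 rose without both numbered 2. Without NK B6g7 replicate 1 alone 6 rose, without NK NOD replicate 1 alone 7, and without any 1 of the other 6 arrays 1. The part of these cells in other results was not tested beyond these fits.

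Platelet, basophil, dendritic and plasma cell markers were called in single genes, and over all genes 22.9% rose and 23% fell. The rises among platelet, dendritic and plasma cell markers were near that share. Cd9, a tetraspanin of platelets and of several leukocytes, was at 8.23, 7.42, 7.76 and 8.21 in NK cells against 5.82, 5.53, 6.05 and 5.83 in splenic leukocytes (at least 4.01-fold, adjusted p = 5.56e-05), whereas the platelet gene Pf4 lay at 3.85 to 4.01 log2 units in the 8 arrays. Of 8 platelet markers 2 rose and 0 fell. Of 15 basophil and mast cell markers 6 rose and 0 fell, led by Hdc, histidine decarboxylase, at 5.37, 5.94, 6.04 and 6.79 in NK cells against 4.96, 4.98, 4.97 and 5.01 in splenic leukocytes (adjusted p = 0.00507). Fcer1a, Ms4a2 and Mcpt4, defining genes of these cells, were at 2.84 to 3.11, 2.96 to 3.28 and 3.06 to 3.33 in the 8 arrays, under the level of absent transcripts. Of 10 dendritic cell markers 3 rose and 1 fell, all by less than 1 log2 unit. Of 8 plasma cell markers 2 rose and 2 fell, with 1 rise in most fits that left out 1 array, and Jchain was at 7.45, 6.82, 8.56 and 7.84 in NK cells against 7.33, 8.24, 8.19 and 9.32 in splenic leukocytes (adjusted p = 0.151).

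**Figure D4:**
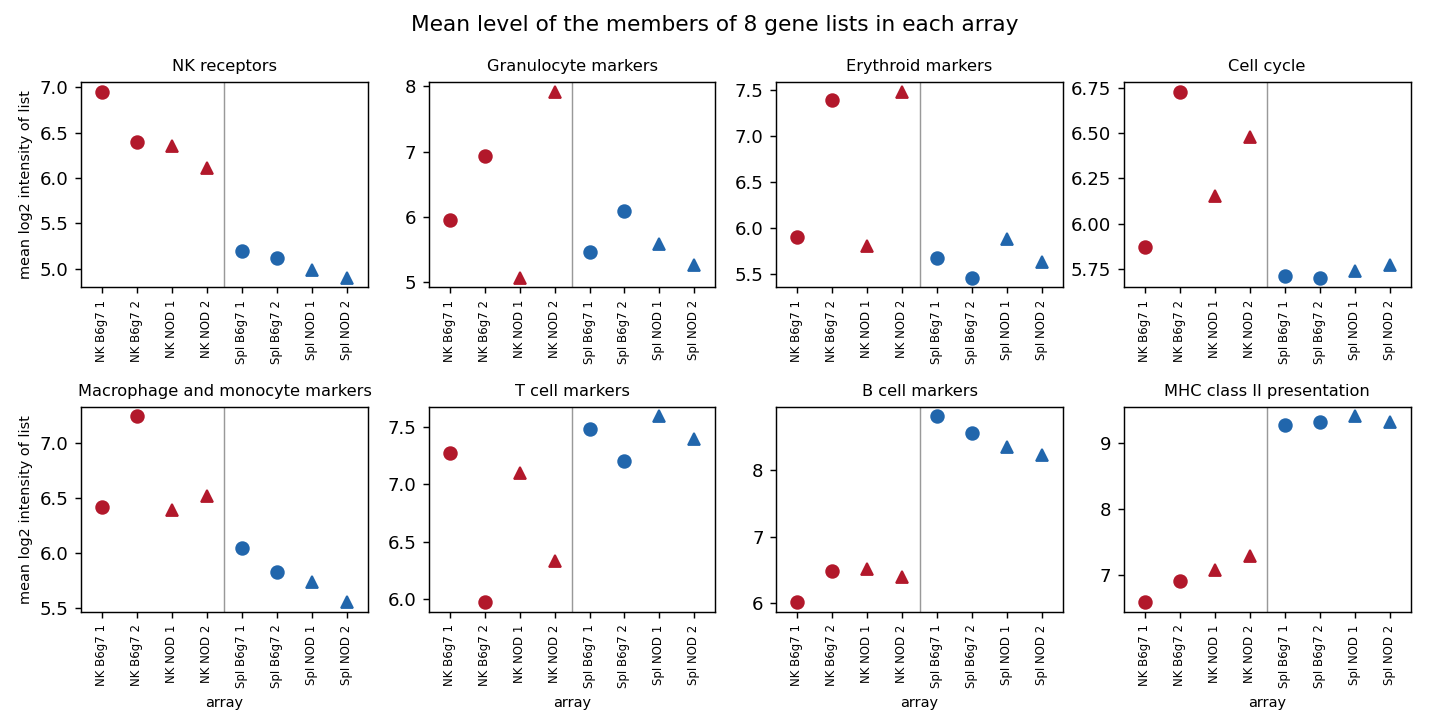
Mean log2 intensity over the members of 8 gene lists in each array, NK cells (red) to the left of splenic leukocytes (blue), circles B6g7 and triangles NOD; each panel has its own vertical scale. NK receptor means are 6.11 to 6.95 in NK cells against 4.90 to 5.19 in spleen, while granulocyte, erythroid and cell cycle means are higher in NK replicate 2 than in NK replicate 1 on each background, and T cell means the reverse.

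Cell cycle genes were higher in NK cells, where 22.9% of all genes rose. Of 29, 18 rose, 3 fell and 8 did not pass (median 0.67), and their mean was 5.87, 6.73, 6.15 and 6.48 in NK cells against 5.70 to 5.77 in splenic leukocytes. Mki67, the proliferation antigen Ki-67, was at 5.45, 7.80, 6.40 and 7.74 in NK cells against 4.61, 4.38, 4.89 and 4.73 in splenic leukocytes (at least 2-fold, log2 2.20, SE 0.48, adjusted p = 0.0069). Cdc6, which licenses replication origins, was at 5.77, 8.08, 6.55 and 7.45 in NK cells against 4.73, 4.75, 4.78 and 5.06 in splenic leukocytes (at least 2.16-fold, adjusted p = 0.00532), and the cyclin Ccnb2 rose 2.67-fold (adjusted p = 0.00421). E2f8, a repressor of cell cycle genes and among the 15 largest rises, was at 5.78, 7.18, 6.19 and 6.95 against 2.99, 3.49, 3.17 and 3.19 in splenic leukocytes. In all 4 genes replicate 2 was above replicate 1 on both backgrounds, as for the granulocyte and erythroid markers. B6g7 replicate 2 came from the younger mice. Without both numbered 2, Mki67 rose by 1.27 and E2f8 by 2.77, and both passed. Without both NK arrays numbered 2, 16 of 29 still rose and 3 fell (median 0.37), and without both numbered 1, 22 rose and 2 fell (0.87). The helicase subunits Mcm5 and Mcm7 fell by 0.76 and 1.02. Between NK cells and lymph node T cells 7 of 29 were higher and 1 lower, beside 9.15% and 12.3% of all genes.

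General cell genes were also among the called genes. Rps7, a ribosomal protein, was at 7.77, 7.37, 7.67 and 7.03 in NK cells against 12.74, 12.72, 12.83 and 12.76 in splenic leukocytes (log2 -5.31, SE 0.15, adjusted p = 2.21e-07), with the 16 other arrays between, at 9.32 to 11.38. Of 35 cytosolic ribosomal protein genes 20 fell, 9 rose and 6 did not pass (median -0.39), beside 23% and 22.9% of all genes. The rises were 3 without spleen NOD replicate 1, 4 without NK NOD replicate 1, 5 without NK B6g7 replicate 2 and 1 over all 24 arrays, while the falls were 19 or 18 in these 3 smaller fits and 15 over all 24 arrays. Examples are Rpl10a at -3.17, Rps3a1 at -2.31 and, in the other direction, Rps24 at 0.56, which did not pass over all 24 arrays (adjusted p = 0.199). A second probe set of Rpl10a gave 0.28. Tmsb10, a small actin-binding protein, was at 7.11, 7.02, 7.52 and 7.26 in NK cells against 12.21, 12.11, 12.62 and 12.74 in splenic leukocytes, and Arhgef1, a guanine nucleotide exchange factor, at 4.28, 4.10, 4.01 and 4.09 against 8.09, 8.01, 8.08 and 8.30. In both, the 16 other arrays (6.75 to 8.10 and 3.96 to 5.08) lay around the NK values and below all 4 spleen arrays, and Tmsb10 did not pass against lymph node T cells (-0.23, adjusted p = 0.481). Of the 15 largest falls, 14 had all 16 other arrays below all 4 spleen arrays. These falls were chosen for high values in the same spleen arrays, so that count follows in part from the choice. Oxidative phosphorylation genes went both ways, from Ndufa5 at 1.75 to Uqcrh at -3.00. Of 73, 22 were higher, 30 lower and 21 not passing (median -0.04), beside 22.9% and 23% of all genes. In the fit over all 24 arrays 11 were higher and 22 lower.

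Of 23 immediate early and stress genes 8 fell, 3 rose and 12 did not pass, with Nfkbia, the NF-kappaB inhibitor, at 6.96, 7.33, 6.82 and 7.37 in NK cells against 9.36, 9.37, 9.23 and 9.10 in splenic leukocytes (4.42-fold lower, adjusted p = 1.02e-05) and the heat shock gene Hspa1a higher by 0.84 (adjusted p = 0.00328). Fos, at 6.77, 8.22, 7.13 and 8.27 in NK cells and 7.17, 4.83, 8.08 and 4.49 in splenic leukocytes, varied widely within the spleen arrays and did not pass. Of 12 type I interferon-induced genes 5 fell, 1 (Rsad2) rose and 6 did not pass, where 22.9% of all genes rose and 23% fell. Of the interferon-induced genes 2 fell without NK NOD replicate 1, 3 without spleen B6g7 replicate 1 and 1 over all 24 arrays, and 2 rose without spleen NOD replicate 1. Irf7 fell by 0.71 (adjusted p = 6.25e-04) and Isg15 was at -0.79 (adjusted p = 0.0508).

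NK cells were also compared with the 5 arrays of lymph node CD4+ T cells, which had the same 2 rounds of amplification. Of these T cell arrays 2 were B6g7 and 3 NOD, all from BDC2.5 mice. Both B6g7 NK arrays came from mice without a transgene, and those of replicate 1 were older than the T cell donors. The part of transgene and age in this comparison was not tested. In those T cell arrays the 3′ minus 5′ log2 signal was 2.83 to 3.84 for Gapdh and 1.99 to 3.41 for beta-actin. Both ranges lay below all 4 NK arrays. The NK arrays are those used above, so the comparisons are not independent. Here 2395 of 12422 probe sets (19.3%) were called, and 9.15% of genes were higher and 12.3% lower in NK cells. The count was 1340 without NK NOD replicate 2 and 1497 without NK NOD replicate 1. Of the 17 NK receptors 13 were higher and 1 lower in NK cells (median 2.07), and of the 20 cytotoxic genes 10 were higher and 1 lower (0.44). Tyrobp was higher by 6.5 (SE 0.27, adjusted p = 5.08e-06), Klra3 by 4.94 (SE 0.30, adjusted p = 4.51e-05), Klrd1 by 4.51 (SE 0.25, adjusted p = 2.92e-05) and Id2 by 3.61 (SE 0.28, adjusted p = 1.26e-04). Of the 17 T cell markers 9 were lower and 0 higher, with Cd3d at -3.86 (adjusted p = 5.70e-04) and Cd3e at -0.72 (adjusted p = 0.088).

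The difference between NK cells and splenic leukocytes was tested for a dependence on background. Of 12422 probe sets 1 (0.00805%) passed, that of Cd72 described above, and 259 had an unadjusted p under 0.05 in the limma interaction. Without spleen NOD replicate 1 none passed in limma (0, with 236 at an unadjusted p under 0.05), 2 passed without NK B6g7 replicate 1 and 3 without NK B6g7 replicate 2. Klrb1a followed at an adjusted p of 0.0557. Klrb1b differed the other way, with 1.61 in B6g7 and 2.74 in NOD (interaction -1.13, SE 0.20, adjusted p = 0.729). With 2 arrays per population and background, an interaction that did not pass does not show that backgrounds act alike.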

How the data were processed

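Labelled RNA of 24 samples was hybridised to 1-colour oligonucleotide arrays. The authors deposited 1 linear intensity per probe set and array. RMA is named for 5 of the 8 arrays, per the submitters' processing notes, and its settings, and the summarisation of the other 3, are not given in the sources used here. Log2 of the deposited intensity was used with no further scaling, since the array medians were close.

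Of 12488 probe sets, 66 controls were left out. The platform annotation gave 10833 probe sets 1 gene (10817 of them through an Entrez ID), 396 several and 1193 none. Each of 8251 genes was represented by 1 probe set, the brightest on average across the 24 arrays. Suffixes such as _f_at mark probe sets that share sequence with other transcripts.

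Differences were fitted over 8 arrays with limma 3.58.1 (R 4.3.3), population plus background, 5 residual degrees of freedom, with Benjamini-Hochberg adjustment over 12422 probe sets and a threshold of 0.05. The interaction used 4 group means (4 residual degrees of freedom). NK cells and lymph node T cells were fitted over 9 arrays in the same way. The fit was checked on simulated data. The genes named were the 15 largest changes each way among calls without overlap, up to 4 per list and direction, a panel of 30 marker genes and the top interactions, and further list members are given by value. Members and lists were chosen with earlier results of these data known. The number of arrays limits the precision.

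Replicate numbers did not pair the samples: deviations of same-numbered NK and spleen arrays correlated at 0.07 in B6g7 and 0.00 in NOD. Alternatives covered scaling, a filter on dim probe sets, the variance prior, array weights, the arrays and blocks in the fit, 1 probe set per gene and each array left out. Slide and scan records were not analysed here.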

Additional observations from a re-analysis of the deposited data

Results flagged for a closer look

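In 14 of 470 groups of 4 arrays, 1 array stood farther from the other 3 than Dixon's criterion allows. Chance alone sets about 1 in 20 groups apart.

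Among NK arrays, Cd8b1 was at 10.42 in B6g7 replicate 1, against 4.92 to 5.66 in the other 3. Klrg1 was at 7.40 and Ly6d, a B cell surface protein, at 6.30 in B6g7 replicate 2, against 6.54 to 6.66 and 5.76 to 5.85 in the others. The mean of the macrophage and monocyte markers was 7.24 in the same array, against 6.39 to 6.52 in the others. Igkv6-14 was at 4.82 in NOD replicate 1, against 4.32 to 4.35. In NOD replicate 2 the mean of the immediate early and stress genes was 7.01, against 6.88 to 6.89, and Gfap, an astrocyte gene, was at 5.37, against 5.43 to 5.44.

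Among spleen arrays, B6g7 replicate 1 was high in the B cell genes Cd24a (10.68, others 9.99 to 10.10), Cxcr5 (9.04, others 8.54 to 8.56) and Pax5 (9.20, others 8.69 to 8.75). Il4ra was low in B6g7 replicate 2 (8.39, others 8.67 to 8.72). NOD replicate 2 was high in Cdc6 (5.06, others 4.73 to 4.78) and low in the B cell factor Mef2c (6.75, others 7.48 to 7.53). Ccl22 was low in NOD replicate 1 (6.82, others 7.06 to 7.10).

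The difference between NK cells and splenic leukocytes depended on background for Cd72, by -4.54 in the limma interaction (adjusted p = 0.00483).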

How the results depend on the processing

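Quantile normalization (5457 probe sets called), centring each array on its median (5518), a trended robust prior (5686), array weights (5543), no background block (5675) and the replicate block (5565) kept the count of 5556 within 1.5 times. Without the dimmest 40% of probe sets 7453 were tested, and 1923 were higher and 2244 lower. Of those calls 46.1% were higher, against 52.9% in the main fit, and the cause was not tested. With 1 probe set per gene 8251 were tested, and 1877 were higher and 1892 lower. In a fit over all 24 arrays 2872 were called, 1203 higher and 1669 lower, which is 41.9% higher against 52.9% over the 8 arrays, and the cause was not tested. Leaving out 1 array gave 4560 to 5398, with 2198 to 2866 higher and 2356 to 2532 lower. Without both NK arrays numbered 2 the count was 4670, and without both numbered 1 it was 4764, fits added after the data were seen. Il7r and Lyz2, which did not pass over the 8 arrays, passed in opposite directions in these 2 fits. Without both numbered 1 Il7r was at -1.31 (adjusted p = 6.09e-04) and Lyz2 at 1.63 (adjusted p = 0.0255), and without both numbered 2 Il7r was at 2.01 (1.18e-05) and Lyz2 at -2.09 (7.29e-05).

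The interaction with background gave 4 probe sets without the dimmest 40%, 5 with a trended robust prior and 1 with the replicate block. It gave 0 to 3 with 1 array left out, with 0 without spleen NOD replicate 1, where 236 had an unadjusted p under 0.05 in limma, 2 without NK B6g7 replicate 1 and 3 without NK B6g7 replicate 2. Against lymph node T cells, leaving out 1 array gave 1340 to 2821, with 571 to 1329 higher and 769 to 1689 lower. The lowest count was without NK NOD replicate 2 (1340), and without NK NOD replicate 1 it was 1497. Quantile normalization gave 2594 there, all 24 arrays 1882 and the replicate block 1996.

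Of 179 genes with a call among the 210 followed, 63 lost it under some setting other than leaving out arrays, most often within 1 background (47 in B6g7, 39 in NOD), where 2 arrays stand against 2. In the fit over all 24 arrays 35 lost it, among them Ccl5 (adjusted p = 0.136), Ifng (0.0594), Ets1 (0.0709), B2m (0.557) and Ctss (0.545). Within B6g7 these included Gzma (adjusted p = 0.153) and Mki67 (0.0761), and within NOD Ms4a1 (0.114) and Fyn (0.0817). Against NK arrays the spleen arrays had other amplification and another code run, which no setting separates. Genes at or under the level of absent transcripts have no measured level.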
